A study of Mus musculus with 12 samples.

Results

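The cytochrome P450 genes outside the Cyp4a subfamily were followed across kidneys of diabetic and non-diabetic mice with and without the chemokine receptor D6. Members were all genes on the array whose single annotated symbol begins with Cyp and a digit, leaving out the Cyp4a genes and Cyp27b1, Cyp24a1, Cyp51, Cyp11a1 and Cyp11b1. This gave 78 of the 19936 genes, each with 1 probe set, by symbol alone. A further 7 P450 probe sets carried several symbols and were not analysed here. The kidneys came from mice aged 6 months on the FVB strain, with 1 array per mouse and 3 arrays per group. Neither diabetes nor a knockout was present in the FVB group. The D6 group was homozygous for the D6 deletion without diabetes, the OVE group had diabetes and both D6 alleles, and the OVE-D6 group had diabetes and the homozygous deletion. D6 is the product of Ackr2, a receptor that takes up inflammatory CC chemokines without signalling. The knockout allele came from C57BL/6 mice and had been bred into FVB for at least 10 generations, so both knockout groups can carry flanking C57BL/6 sequence around Ackr2. OVE is a transgenic line in which pancreatic beta cells overproduce calmodulin and diabetes begins early in life. Sex was not given in the labels. Xist lay between 12.53 and 12.87 on all 12 arrays. The Y-linked Kdm5d (4.90 to 5.33), Eif2s3y (3.55 to 3.83) and Uty (3.79 to 4.32) were low on all of them. By these genes all 12 arrays read as female, and the arrays did not differ in this respect.

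P450 enzymes carry a haem group and insert an oxygen atom into fatty acids, sterols, retinoids, drugs and pollutants, with electrons passed from cytochrome P450 reductase or, in mitochondria, from ferredoxin. In the kidney the proximal tubule holds most P450 protein. CYP2C and CYP2J enzymes turn arachidonic acid into epoxides that widen blood vessels and promote sodium excretion, and CYP4 enzymes hydroxylate the far end of fatty acid chains. CYP27A1, CYP7B1, CYP39A1 and CYP46A1 act on cholesterol and oxysterols, and CYP2R1 carries out the first hydroxylation of vitamin D.

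The promoters of 5 members are shown because the results turn on them. Cyp1b1 had the lowest adjusted p of the tested members in OVE against FVB, Cyp2j13, Cyp2j11 and Cyp2j5 belong to 1 gene cluster and passed in opposite directions, and Cyp8b1 directly follows the deleted Ackr2 in the order of the array's genes. Each line gives up to 250 bases before the gene's outermost annotated start, 5′ to 3′ on the gene's own strand, from RefSeq annotation of GRCm38.p6, and positions count back from that start. Capitals mark matches to 4 motifs on either strand. The first is the TATA box, spelled TATAAA, and the second the GC box, spelled GGGCGG. The third, CAAAGTCCA, is a site for HNF4, a factor of liver and proximal tubule. The fourth is the core bound by the aryl hydrocarbon receptor with its partner ARNT, spelled TNGCGTG.
Cyp1b1: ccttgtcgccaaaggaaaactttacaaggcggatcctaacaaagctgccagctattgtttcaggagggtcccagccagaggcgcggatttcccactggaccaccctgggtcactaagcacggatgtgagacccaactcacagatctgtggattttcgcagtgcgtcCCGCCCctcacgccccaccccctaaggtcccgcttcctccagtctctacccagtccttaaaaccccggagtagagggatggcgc
Cyp2j13: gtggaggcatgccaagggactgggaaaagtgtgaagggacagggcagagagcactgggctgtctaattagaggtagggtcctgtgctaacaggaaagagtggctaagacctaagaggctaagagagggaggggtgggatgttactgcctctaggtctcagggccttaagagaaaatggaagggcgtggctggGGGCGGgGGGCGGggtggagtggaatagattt
Cyp2j11: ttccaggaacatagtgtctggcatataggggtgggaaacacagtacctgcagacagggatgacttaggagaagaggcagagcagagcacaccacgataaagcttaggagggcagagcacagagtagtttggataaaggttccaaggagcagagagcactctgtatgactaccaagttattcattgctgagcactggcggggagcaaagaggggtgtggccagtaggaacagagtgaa
Cyp2j5: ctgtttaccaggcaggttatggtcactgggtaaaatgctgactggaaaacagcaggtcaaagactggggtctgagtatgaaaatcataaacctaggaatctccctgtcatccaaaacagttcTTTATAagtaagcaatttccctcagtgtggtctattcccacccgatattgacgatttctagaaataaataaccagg
Cyp8b1: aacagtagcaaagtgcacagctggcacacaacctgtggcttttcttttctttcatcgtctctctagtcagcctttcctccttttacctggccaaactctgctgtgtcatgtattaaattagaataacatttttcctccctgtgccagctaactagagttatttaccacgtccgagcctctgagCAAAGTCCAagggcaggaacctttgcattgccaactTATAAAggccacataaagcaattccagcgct
The windows are chr17:79715062-79715311, chr4:96077567-96077790, chr4:96348694-96348930, chr4:96664172-96664369 and chr9:121916306-121916555, all on the minus strand. The Cyp1b1 window held a GC box on the opposite strand at bases -84 to -79, and no aryl hydrocarbon receptor core. The Cyp2j13 window held 2 GC boxes, at -32 to -27 and -25 to -20, which neither Cyp2j11 nor Cyp2j5 had. The Cyp2j5 window held TATAAA on the opposite strand at -76 to -71, and none of the 4 motifs lay in the Cyp2j11 window. Cyp8b1 held the HNF4 site at -67 to -59 and TATAAA at -31 to -26. Over RefSeq promoter windows of 250 bases before to 50 after a listed start, 25 of the 61 members with a promoter entry (41.0%) held TATAAA, against 15.7% of 27025 genes. The HNF4 site was in 7 members (11.5%) against 0.555% of genes, and these were Cyp8b1, Cyp2c65, Cyp2c67, Cyp2c68, Cyp2c70, Cyp3a11 and Cyp3a16. Several of these are near-identical neighbours that share sequence. All 7 had every group mean under the array background of 5.93 set out below, and only Cyp8b1 and Cyp2c70 of them were tested. The GC box was in 15 members (24.6%) against 38.2% of genes, and the aryl hydrocarbon receptor core in 1 member, Cyp2c68 (1.64%), against 5.84% of genes. A match describes these letters only, and the lack of one says nothing of sequence outside these windows.

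Some arrays stood apart from the others of their group. OVE replicate 3 had the weakest macrophage signal of the OVE arrays, with a mean over 12 markers of 7.99 against 8.87 and 8.88 on OVE replicates 1 and 2 and 7.28 to 7.86 on the 9 other arrays. It was not nearest to FVB for every P450 gene, since Cyp4b1 (10.12) and Cyp2d12 (7.27) had their lowest values there. OVE-D6 replicate 3 carried adrenal markers, with a mean over 10 of them of 7.46 against 6.02 to 6.37 elsewhere. Ackr2 itself read 6.74 to 7.04 on all 12 arrays, and its probe set may lie outside the deleted part, so it does not check the labels. The kidney label was borne out by 19 proximal tubule markers, with array means of 11.77 to 12.16, while 10 liver markers averaged 6.16 to 6.57. All values are the deposited log2 probe-set values, and levels of different probe sets are not compared as amounts of RNA. In whole kidney, fewer cells of a type and less RNA per cell cannot be told apart.

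Much of the family lay near the array's background in kidney. The background was set at 5.93, the 95th percentile of the means of 1027 olfactory receptor genes, which kidney hardly expresses. All 4 group means were under it for 36 members, and at least 1 was above it for 42. A gene was tested where its value exceeded the 25th percentile of the array on 3 arrays or more, which left 49 members among 16480 tested genes. Only these were tested, so counts below refer to the members that passed, not to the whole family. Of the 29 others, 28 lay between 3.28 and 5.48 on every array. They include the inducible detoxification enzymes Cyp1a1 and Cyp1a2, every Cyp3a member apart from Cyp3a13, and Cyp2b10. Also among them are 9 of the 13 Cyp2c members, all on chromosome 19, and Cyp7a1, the rate-limiting enzyme of bile acid synthesis. The remaining one, Cyp21a1, is described with the steroid enzymes. A mean over 8 was reached by 16 members, or 20.5%, against 40.1% of all genes. The 10 with the highest means were Cyp2j5 (12.68), Cyp2j11 (12.20), Cyp2d26 (12.02), Cyp2d22 (11.57), Cyp4b1 (10.98), Cyp2e1 (10.47), Cyp2j6 (9.81), Cyp27a1 (9.79), Cyp4f13 (9.74) and Cyp1b1 (9.71).

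OVE kidneys were compared with FVB kidneys to ask which P450 genes changed with diabetes when D6 was intact. Cyp1b1, Cyp27a1 and Cyp2j13 rose, and Cyp2d12, Cyp4b1, Cyp2r1, Cyp2j11 and Cyp2j5 fell. These 8 of the 49 tested members (16.3%) passed limma at an adjusted p of 0.05, against 7.28% of all tested genes. By direction, 3 members were higher where 4.9% of all genes were, and 5 were lower where 2.38% of all genes were. At an unadjusted p of 0.05 the count was 16 (32.7%) against 24.1%. The groups did not overlap for 15 members (30.6%) against 27.1% of all genes. The median difference over the 49 members was -0.06 on the log2 scale, with 18 positive and 31 negative, and that over all tested genes was -0.02.

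**Figure D1:**
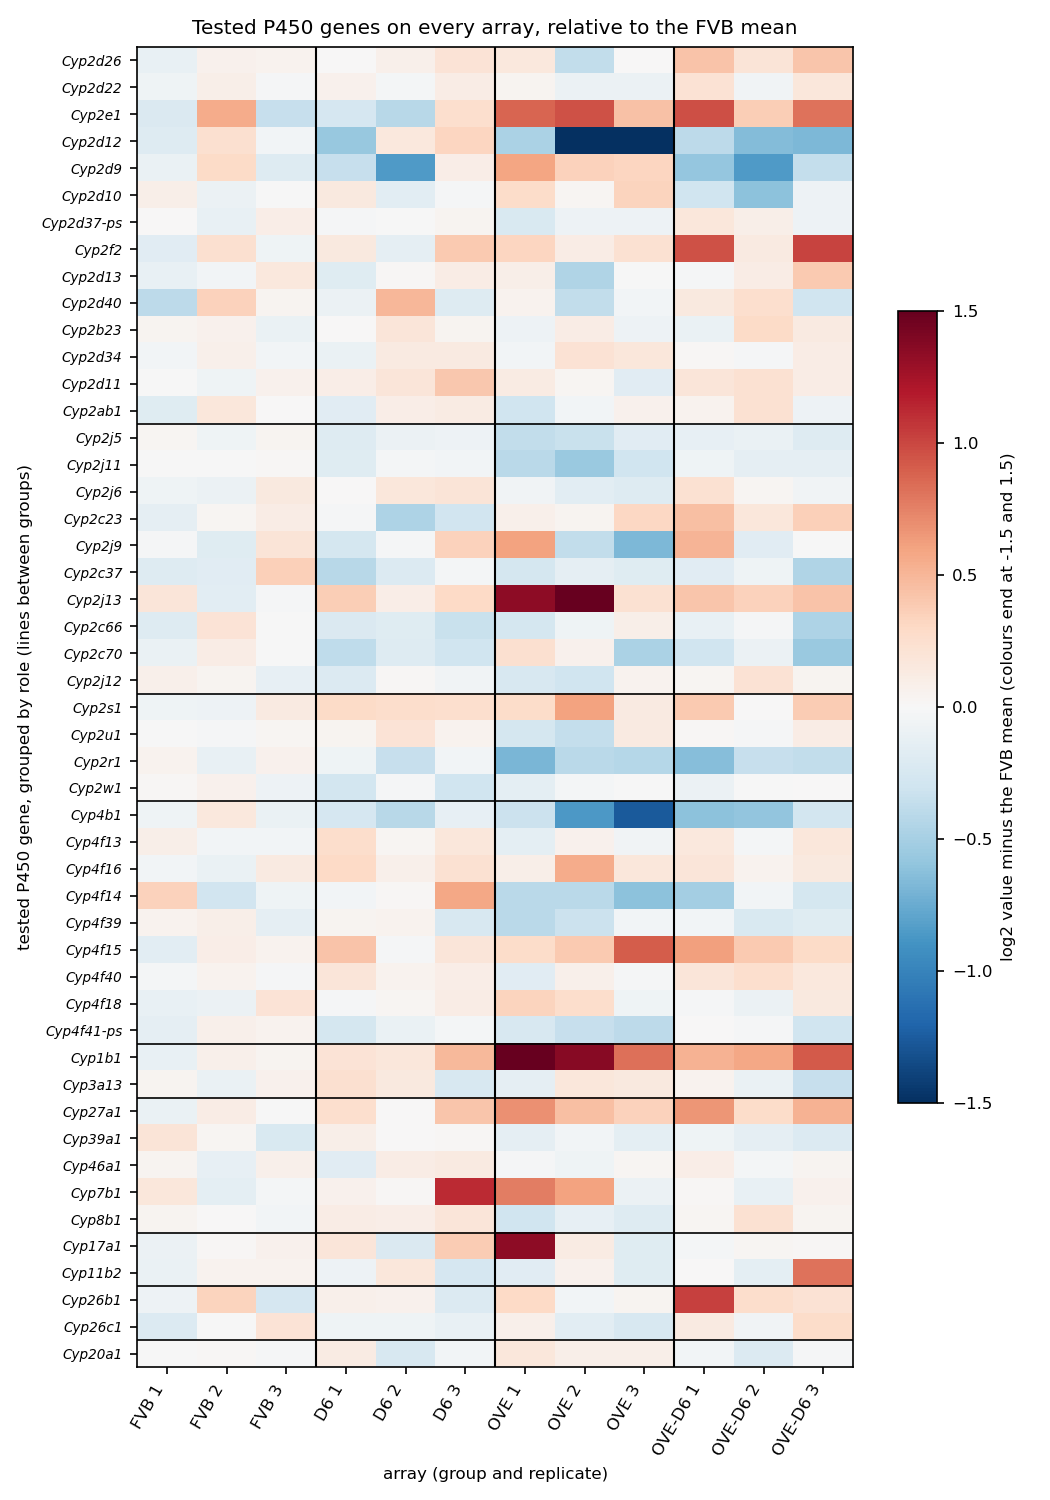
Each row is 1 of the 49 tested P450 genes and each column 1 array, coloured by its log2 value minus the FVB mean of that gene, with horizontal lines between role groups. Cyp1b1 is red on all 3 OVE arrays, Cyp2j13 is strongest on OVE replicates 1 and 2, and Cyp2d12 is darkest on OVE replicates 2 and 3, where it read 7.29 and 7.27.

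Among the xenobiotic enzymes of the CYP1 and CYP3 families, 2 of 9 were tested and 1 rose. Cyp1b1, a dioxin-inducible enzyme that also oxidises oestrogens, retinol and fatty acids, read 9.04, 9.23 and 9.20 in FVB and 10.68, 10.52 and 9.98 in OVE. In D6 it read 9.36, 9.33 and 9.64 and in OVE-D6 9.68, 9.74 and 10.08. Every diabetic array lay above every non-diabetic one, and OVE replicate 3 was the lowest of its group. The OVE mean was 2.36-fold the FVB mean (log2 difference 1.24 ± 0.17, SE, n = 3 per group, adjusted p = 0.00245 in limma). It passed without each of the 12 arrays in turn and under all 9 other settings tried, with adjusted p between 7.23e-05 and 0.0177. The other tested gene of the group, Cyp3a13, lay between 5.58 and 6.17 on the 12 arrays and differed by 0.07 ± 0.14.

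The rise of Cyp1b1 was set beside its regulator and that regulator's other targets. Ahr, the aryl hydrocarbon receptor, differed by -0.11 ± 0.10 between OVE and FVB and did not pass. Of 3 other tested targets, 1 rose, the quinone reductase Nqo1, by 0.82 ± 0.16 (adjusted p = 0.0111). Nqo1 is also a target of the oxidative stress factor NRF2. Cyp1a1 stayed under the background on every array. Cyp1b1 is also expressed in macrophages and mesenchymal cells, and their markers were read beside it. Of 12 macrophage markers 11 rose in OVE and the list's array means were 7.28 to 7.54 in FVB and 7.99 to 8.88 in OVE. Of 10 fibroblast markers 5 rose, among them Vim by 0.75 ± 0.16, with array means of 8.44 to 8.80 in FVB and 9.0 to 9.60 in OVE. In OVE-D6 against D6 Cyp1b1 differed by 0.39 and did not pass. The 12 macrophage markers had a median of -0.15 there, with 9 negative and 3 positive. The 10 fibroblast markers had a median of 0.11 there, with 7 positive and 3 negative, and no marker of either list passed. Of the macrophage markers, only Fcgr1 had a group mean under the background of 5.93, and the part of these cells in the Cyp1b1 difference was not tested.

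The epoxygenase subfamilies Cyp2c and Cyp2j had 10 of 19 members tested, of which 2 fell and 1 rose in OVE. Cyp2j5, the main kidney member of the CYP2J enzymes, read 12.84, 12.75 and 12.85 in FVB and 12.44, 12.48 and 12.64 in OVE. D6 arrays gave 12.62, 12.73 and 12.74 and OVE-D6 arrays 12.69, 12.71 and 12.62. All OVE arrays were below all FVB arrays, by a mean of -0.29 ± 0.07 (adjusted p = 0.0348). This call was lost without each FVB array and without OVE replicates 1 and 2 (adjusted p up to 0.117), and it held in 6 of 9 other settings. Cyp2j11, another gene of the same cluster with a less studied substrate range, read 12.35, 12.35 and 12.38 in FVB and 11.95, 11.80 and 12.06 in OVE. D6 arrays gave 12.18, 12.33 and 12.32 and OVE-D6 arrays 12.30, 12.23 and 12.22. The 3 OVE arrays lay below all 9 others. The difference between OVE and FVB was -0.42 ± 0.08 (1.34-fold lower, adjusted p = 0.00965). It passed without each array in turn and in 8 of 9 other settings, with an adjusted p of 0.0503 where only the compared groups were fitted.

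Cyp2j13 went the other way, from the edge of the background. It read 5.69, 5.36 and 5.49 in FVB, 5.88, 5.61 and 5.81 in D6, and 5.93, 5.86 and 5.94 in OVE-D6. In OVE it read 6.85, 7.73 and 5.74, so OVE replicates 1 and 2 stood above all other arrays and OVE replicate 3 lay among the rest. The difference was 1.26 ± 0.34 (adjusted p = 0.0439), and no fold is given because the FVB mean was under the background. The call held in 1 of the 12 fits with 1 array left out, the one without OVE replicate 3, and was lost in the 11 others (adjusted p up to 0.126). It held in 5 of 8 other settings. OVE replicates 1 and 2 are also the arrays with the highest macrophage list means, and whether the signal came with those cells was not tested. The other tested members of both subfamilies did not pass. Cyp2j6 differed by -0.13 ± 0.10, Cyp2j9 by -0.14 ± 0.28, Cyp2j12 by -0.16 ± 0.11 and Cyp2c23, the chief kidney epoxygenase of the Cyp2c genes, by 0.15 ± 0.12.

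The enzymes on either side of the epoxygenases came from a list of eicosanoid pathway partners. Of 10 tested, 3 rose in OVE and none fell, with a median difference of 0.30. Ephx1, microsomal epoxide hydrolase, rose by 1.06 ± 0.20 (adjusted p = 0.0112), Alox5, the leukocyte lipoxygenase, by 0.68 ± 0.11, and Ptges, a prostaglandin E synthase, by 0.35 ± 0.09. Ephx2, the soluble hydrolase that inactivates arachidonic acid epoxides, differed by 0.01 ± 0.12 and did not pass.

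Of the 21 drug and steroid metabolising CYP2 members 14 were tested, and 1 fell in OVE. Cyp2d12 read 8.61, 9.04 and 8.76 in FVB and 8.33, 7.29 and 7.27 in OVE. D6 arrays gave 8.24, 8.96 and 9.12 and OVE-D6 arrays 8.41, 8.15 and 8.13. OVE lay below FVB without overlap, though OVE replicate 1 was within the D6 range. It was 2.26-fold lower in OVE than in FVB (log2 difference -1.18 ± 0.27, adjusted p = 0.0241), and the call was lost without FVB replicate 2, FVB replicate 3 or OVE replicate 2 (adjusted p up to 0.0974). Cyp2e1, which oxidises ethanol and acetone, differed by 0.76 ± 0.25 (adjusted p = 0.0841) and did not pass here. It read 9.92, 10.70 and 9.80 in FVB and 11.01, 11.10 and 10.58 in OVE, with FVB replicate 2 inside the OVE range.

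In the CYP4 family outside Cyp4a, 9 of 11 members were tested and 1 fell. Cyp4b1, a fatty acid and xenobiotic hydroxylase of kidney and lung, read 11.31, 11.54 and 11.28 in FVB and 11.06, 10.51 and 10.12 in OVE. In D6 it read 11.12, 10.96 and 11.25 and in OVE-D6 10.76, 10.78 and 11.10. OVE and FVB did not overlap. The OVE mean was 1.76-fold lower (log2 difference -0.82 ± 0.19, adjusted p = 0.0237), and the call was lost without each FVB array or OVE replicate 2 (adjusted p up to 0.0882). In the same group, the leukotriene hydroxylase Cyp4f14 differed by -0.47 ± 0.19 (adjusted p = 0.147) and Cyp4f15 by 0.53 ± 0.16 (adjusted p = 0.0665), and neither passed.

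The cholesterol enzymes had 5 of 6 members tested and 1 rose. Cyp27a1, the mitochondrial sterol hydroxylase that also acts on vitamin D, read 9.39, 9.60 and 9.48 in FVB and 10.18, 9.94 and 9.84 in OVE, with no overlap. D6 arrays gave 9.74, 9.50 and 9.91 and OVE-D6 arrays 10.15, 9.77 and 10.01. It was 1.41-fold higher in OVE than in FVB (log2 difference 0.49 ± 0.13, adjusted p = 0.0376). The call was lost without any 1 of the FVB arrays, D6 replicate 1 or OVE replicates 1 and 2 (adjusted p up to 0.118). Cyp46a1 differed by -0.02 ± 0.09, Cyp39a1 by -0.10 ± 0.10 and the oxysterol hydroxylase Cyp7b1 by 0.43 ± 0.27, and none of these passed. Cyp7b1 was uneven within groups, at 7.83 on D6 replicate 3 and 7.47 and 7.31 on OVE replicates 1 and 2 against 6.56 to 6.88 on the other 9 arrays.

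Among the 5 remaining CYP2 genes 4 were tested. Cyp2r1, the vitamin D hydroxylase, read 7.01, 6.85 and 7.02 in FVB and 6.28, 6.56 and 6.53 in OVE. D6 arrays gave 6.89, 6.62 and 6.92 and OVE-D6 arrays 6.32, 6.61 and 6.59. All 6 diabetic arrays lay below all 6 non-diabetic ones, with the highest diabetic value 6.61 and the lowest non-diabetic value 6.62. Cyp2r1 was 1.42-fold lower in OVE than in FVB (log2 difference -0.51 ± 0.11, adjusted p = 0.0199), and the call was lost without FVB replicate 1, FVB replicate 3 or OVE replicate 1 (adjusted p up to 0.0737). Cyp2s1, Cyp2u1 and Cyp2w1 differed by 0.34 ± 0.13, -0.16 ± 0.11 and -0.06 ± 0.09 and did not pass.

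**Figure D2:**
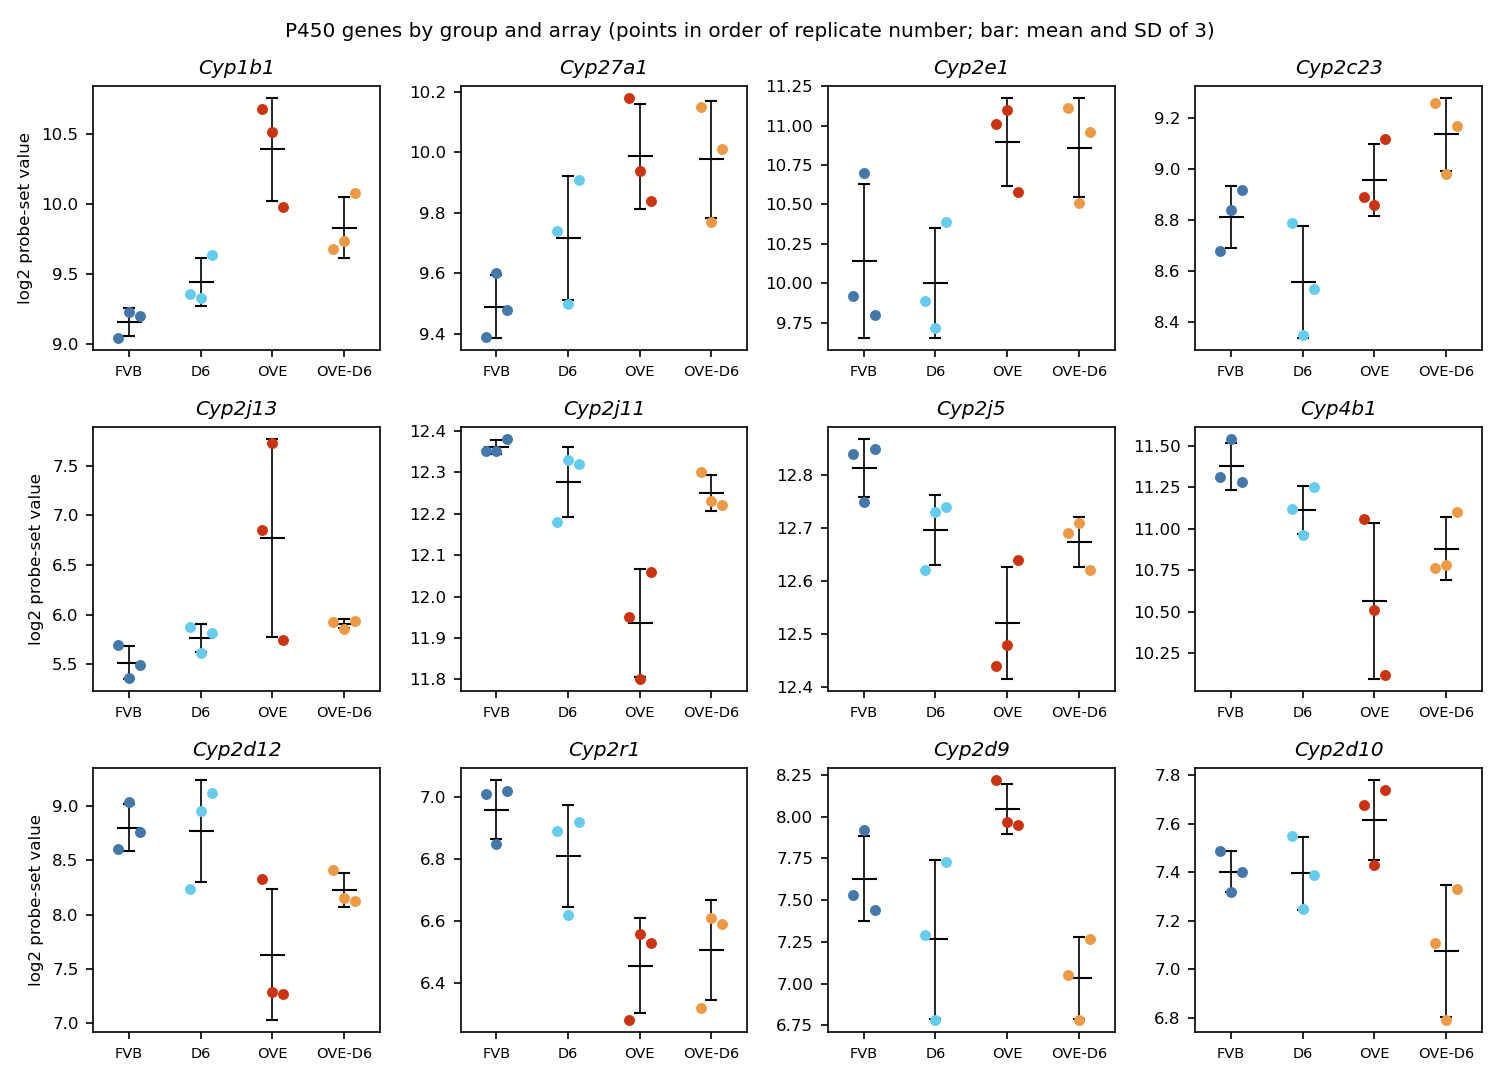
Each panel plots 1 P450 gene, with the log2 probe-set value on the vertical axis (each panel has its own range, not starting at 0), 3 points per group in order of replicate number, and a bar for the mean and SD. Cyp2j11 in OVE lies at 11.80 to 12.06, under all other groups, and the OVE group of Cyp2j13 spans 5.74 to 7.73.

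The count of 8 members depended on the arrays used. With only the FVB and OVE arrays in the fit it was 2, Cyp1b1 and Cyp2r1. Without FVB replicate 1, 2 or 3 the counts were 3, 4 and 2, and without OVE replicate 1, 2 or 3 they were 4, 3 and 10. Without OVE replicate 1 the share of all tested genes fell too, from 7.28% to 4.34%. The shares in the other fits with fewer calls are not given here, so the drop is not read as particular to the members. Without OVE replicate 3 the members called were those 8 with Cyp2e1 (0.91) and Cyp2u1 (-0.30) added, beside 11.5% of all tested genes. Proximal tubule markers, which share their cell type with several of the lower members, had 3 of 19 lower in OVE (Lrp2, Slc7a13 and Kap) and a median of -0.19. Their array means were 12.07 to 12.16 in FVB and 11.77 to 11.97 in OVE. Their part in the lower P450 values was not tested.

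Diabetes averaged over both genotypes, OVE and OVE-D6 against FVB and D6, used all 12 arrays. It shares the OVE and FVB arrays with the comparison above, so the calls in common are not independent of it. Of the 49 members 8 passed (16.3%), 4 higher and 4 lower, against 7.65% of all tested genes, of which 4.49% were higher and 3.16% lower. The median of the members was 0.00 and that of all genes -0.01. The higher members were Cyp1b1 (0.81 ± 0.12, adjusted p = 0.00252), Cyp2e1, Cyp27a1 (0.37 ± 0.09, adjusted p = 0.0269) and Cyp2c23. The lower ones were Cyp2d12 (-0.86 ± 0.19, adjusted p = 0.0207), Cyp4b1 (-0.52 ± 0.13, adjusted p = 0.0341), Cyp2r1 (-0.41 ± 0.08, adjusted p = 0.0113) and Cyp2j11 (-0.23 ± 0.06, adjusted p = 0.0291). Every diabetic array lay outside the non-diabetic range for 2 members, Cyp1b1 and Cyp2r1 (4.08%), against 3.42% of all genes.

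Cyp2e1 was called only in this average among the 6 comparisons. Its 6 non-diabetic arrays read 9.92, 10.70 and 9.80 in FVB and 9.89, 9.72 and 10.39 in D6. The 6 diabetic ones read 11.01, 11.10 and 10.58 in OVE and 11.11, 10.51 and 10.96 in OVE-D6. Only FVB replicate 2 reached into the diabetic range. The average difference was 0.81 ± 0.18, or 1.75-fold (adjusted p = 0.0175), and it passed without each array in turn. FVB replicate 2 was also the array with the highest mean over 9 fat tissue markers, 8.80 against 7.08 to 8.24 on the others, and the part of fat in its Cyp2e1 value was not tested.

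Cyp2c23 read 8.68, 8.84 and 8.92 in FVB, 8.79, 8.35 and 8.53 in D6, 8.89, 8.86 and 9.12 in OVE, and 9.26, 8.98 and 9.17 in OVE-D6. The OVE-D6 arrays lay above all 6 non-diabetic arrays, while OVE overlapped FVB. The averaged difference was 0.36 ± 0.09 (adjusted p = 0.0252). Counts in this comparison were 4 without FVB replicate 1, 5 without FVB replicate 3, 3 and 5 without D6 replicates 2 and 3, and 5 and 4 without OVE-D6 replicates 1 and 3. Without OVE-D6 replicate 3 the share of all tested genes fell as well, from 7.65% to 3.99%. The shares in the other fits listed are not given here, so these counts are not read as particular to the members. Cyp1b1, Cyp2e1 and Cyp2r1 were called in all 12 fits with 1 array left out. Cyp2d12 was called in 9, Cyp2c23 in 7, Cyp27a1 in 6, Cyp2j11 in 4 and Cyp4b1 in 3.

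The genes that serve or control P450 enzymes were read by the same test, beside the 7.28% and 7.65% of all genes called in OVE against FVB and in the average. Of 10 listed electron donor and haem genes, 8 were read. Cytochrome P450 reductase was not among them, so its level is not known here. None of the 8 passed in either, with medians of 0.05 and 0.07. Hmox1, which breaks down haem, had the widest difference of these in the average, 0.99 ± 0.35 (adjusted p = 0.111). It read 11.03 on OVE-D6 replicate 2 and 8.19 to 9.80 on the other arrays. Of 17 tested receptors and factors that regulate P450 genes none passed in OVE against FVB, and 1 was lower in the average, Hnf4a, by -0.20 ± 0.05 (adjusted p = 0.0319). Nr1i3, the receptor CAR, differed by 0.47 ± 0.14 in the average (adjusted p = 0.069) and did not pass.

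OVE-D6 kidneys were compared with OVE kidneys to ask whether the loss of D6 altered P450 expression in diabetes. No member passed, while 0.231% of all tested genes did. At an unadjusted p of 0.05 there were 14 members (28.6%) against 14.8% of all genes. The median over the members was 0.15 against 0.01 over all genes, with 30 positive and 19 negative. The groups did not overlap for 8 members (16.3%) against 17.6% of all genes. The 4 members with the smallest p were Cyp2d9, Cyp2d10, Cyp8b1 and Cyp2j11.

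Cyp2d9, a steroid hydroxylase with higher expression in males in mouse liver, read 8.22, 7.97 and 7.95 in OVE and 7.05, 6.78 and 7.27 in OVE-D6. FVB arrays gave 7.53, 7.92 and 7.44 and D6 arrays 7.29, 6.78 and 7.73. OVE lay above OVE-D6 without overlap and above FVB by a narrow margin. The difference between OVE-D6 and OVE was -1.01 ± 0.21 (95% interval -1.46 to -0.56, adjusted p = 0.0774). Cyp2d10, its neighbour, read 7.68, 7.43 and 7.74 in OVE and 7.11, 6.79 and 7.33 in OVE-D6, a difference of -0.54 ± 0.13 (adjusted p = 0.112). The other groups lay between 7.25 and 7.55. Cyp2j11 differed by 0.31 ± 0.08 (adjusted p = 0.121), and its 3 OVE-D6 arrays were above its 3 OVE arrays.

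Cyp8b1 is the sterol hydroxylase that sets the balance of bile acids in liver, and it lies beside Ackr2 on chromosome 9. It read 5.14, 5.31 and 5.24 in OVE and 5.46, 5.66 and 5.48 in OVE-D6, and 5.47, 5.44 and 5.39 in FVB and 5.54, 5.53 and 5.61 in D6. The 6 knockout arrays lay at 5.46 to 5.66 and the 6 wild-type arrays at 5.14 to 5.47, with 5 of the wild-type arrays under the lowest knockout array. The difference between OVE-D6 and OVE was 0.30 ± 0.08 (adjusted p = 0.119). All group means were under the background of 5.93, so this is no measured level of expression, and the part of flanking C57BL/6 sequence under the probes was not tested.

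Without OVE replicate 3, 5 members passed, against 4.05% of all tested genes. That array was set apart by macrophage markers, which also differ between OVE-D6 and OVE. Within OVE it read lowest for Cyp1b1 (9.98) and Cyp2j13 (5.74) and highest for Cyp2u1 (8.65). Leaving it out therefore favours these calls, and they are no independent result. Cyp1b1 was lower in OVE-D6 than in OVE by -0.77 ± 0.13 (adjusted p = 0.00687), Cyp2j13 by -1.38 (adjusted p = 0.00199) and Cyp2d9 by -1.06 (adjusted p = 0.03). Cyp2j11 was higher by 0.37 (adjusted p = 0.0235), and so was Cyp2u1, a fatty acid hydroxylase, by 0.35 (adjusted p = 0.0341). With all arrays the differences of Cyp1b1 and Cyp2j13 were -0.56 ± 0.17 (adjusted p = 0.161) and -0.87 ± 0.34 (adjusted p = 0.26). Macrophage markers fell in this comparison too, 3 of 12 by the test with all arrays (Lyz2, Cd14 and Mrc1), with a list median of -1.03.

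D6 kidneys were compared with FVB kidneys for the knockout without diabetes. No member passed, with 0.0121% of all tested genes called. At an unadjusted p of 0.05 there were 2 members (4.08%), against 3.82% of all genes. The groups did not overlap for 9 members (18.4%) against 9.79% of all genes. The 4 smallest p-values belonged to Cyp2d11 (0.23, 95% interval 0.02 to 0.44), Cyp2w1 (-0.20, -0.38 to -0.01), Cyp2s1 (0.27, -0.00 to 0.55) and Cyp2c23 (-0.25, -0.52 to 0.01), each with an adjusted p of 1. Cyp2s1, an enzyme of epithelia, read 9.29, 9.27 and 9.49 in FVB and 9.64, 9.61 and 9.60 in D6, without overlap.

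OVE-D6 kidneys were compared with D6 kidneys for the effect of diabetes in the knockout. No member passed, while 0.285% of all tested genes did, and 8 members (16.3%) had an unadjusted p under 0.05 against 9.98% of all genes. The groups did not overlap for 8 members (16.3%) against 16.4%. Cyp2c23 came nearest, higher by 0.58 ± 0.12 on the log2 scale (95% interval 0.32 to 0.84, adjusted p = 0.083). It passed with trended robust variances (adjusted p = 0.0438) and with array weights (adjusted p = 0.0382). Cyp2e1 differed by 0.86 ± 0.25 (adjusted p = 0.217) and Cyp2r1 by -0.31 ± 0.11 (adjusted p = 0.355), and for both the groups did not overlap. Cyp2f2, a naphthalene oxidase of lung and liver, read 7.19, 6.37 and 7.25 in OVE-D6 and 6.38, 6.10 and 6.63 in D6, a difference of 0.57 ± 0.21 (adjusted p = 0.347). OVE-D6 replicate 2 lay within the D6 range.

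The difference between the genotypes in the diabetes effect was tested directly as an interaction, OVE-D6 minus D6 less OVE minus FVB. No member and no gene among the 16480 tested passed limma (0%), and 11 members (22.4%) against 9.99% of all genes had an unadjusted p under 0.05. A smaller effect in one genotype is therefore not shown for any member with all arrays. Cyp1b1 had the smallest p. Its difference was 1.24 ± 0.17 with D6 intact and 0.39 ± 0.17 without D6, an interaction of -0.85 ± 0.23 (adjusted p = 0.284). For Cyp2j11 the differences were -0.42 and -0.03 (interaction 0.39 ± 0.11, adjusted p = 0.287), for Cyp2d10 0.22 and -0.32 (interaction -0.54 ± 0.19, adjusted p = 0.373), and for the pseudogene Cyp4f41-ps -0.33 and 0.03 (interaction 0.36 ± 0.14, adjusted p = 0.419). Without OVE replicate 3, 2 members passed, Cyp1b1 (-1.06, adjusted p = 0.00868) and Cyp2j13 (-1.64, adjusted p = 0.00667), beside 2.29% of all genes. That array was set apart by macrophage markers that differ between OVE and FVB, so these calls are no independent result.

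**Figure D3:**
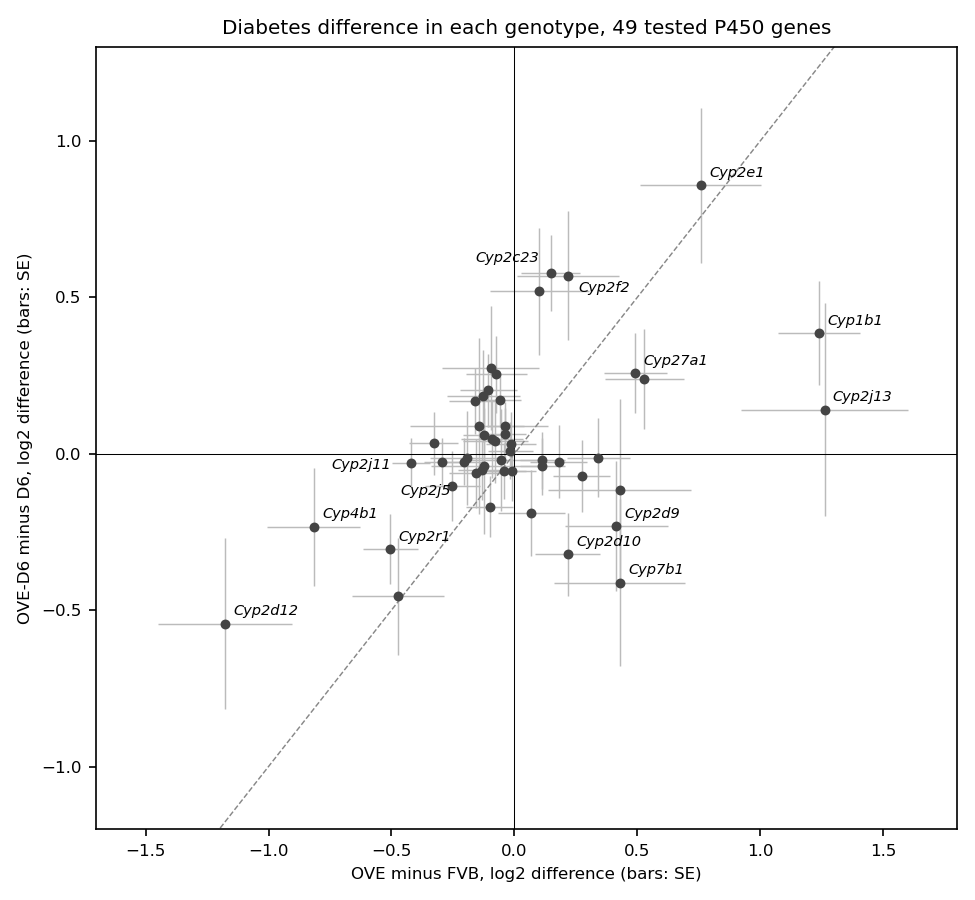
Each point is 1 of the 49 tested P450 genes, with the OVE minus FVB difference on the horizontal axis and the OVE-D6 minus D6 difference on the vertical axis, both log2, bars showing SE and the dashed line equal differences. Cyp1b1 (1.24 and 0.39) and Cyp2j13 lie below the line, Cyp2e1 (0.76 and 0.86) close to it, and Cyp2c23 (0.15 and 0.58) above it.

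These differences come from separate arrays in the 2 genotypes. The sign was shared by 24 of the 49 members and opposite in 25. The difference was larger in size with intact D6 for 31. Across the 49 genes Pearson's r was 0.472, a description over genes that share arrays and, in part, probe sequence. Cyp2e1 and Cyp2r1 differed by similar amounts in both, 0.76 ± 0.25 and 0.86 ± 0.25 for Cyp2e1 and -0.51 ± 0.11 and -0.31 ± 0.11 for Cyp2r1. The interaction intervals were -0.66 to 0.86 and -0.14 to 0.54, which leave room for unequal effects.

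Neighbouring genes were set side by side, with no test between them. The Cyp2d cluster on chromosome 15 had 10 members, all tested, in the order Cyp2d22, Cyp2d11, Cyp2d10, Cyp2d9, Cyp2d12, Cyp2d34, Cyp2d13, Cyp2d37-ps, Cyp2d40 and Cyp2d26. In OVE against FVB, Cyp2d12 fell by 1.18 while Cyp2d9 and Cyp2d10 beside it differed by 0.41 ± 0.21 and 0.22 ± 0.13. The outermost genes Cyp2d22 and Cyp2d26, with means of 11.57 and 12.02, differed by -0.04 ± 0.09 and -0.07 ± 0.12. Cyp2d9 and Cyp2d10 shared their sign there and in OVE-D6 against OVE. In the Cyp2j cluster on chromosome 4, Cyp2j13 at one end rose from the background, while the other 5 genes had negative differences, of which those of Cyp2j11 and Cyp2j5 passed. Genes of these clusters are close in sequence, and a probe set for one may take up RNA of another, so the values of single cluster members are uncertain to that extent.

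**Figure D4:**
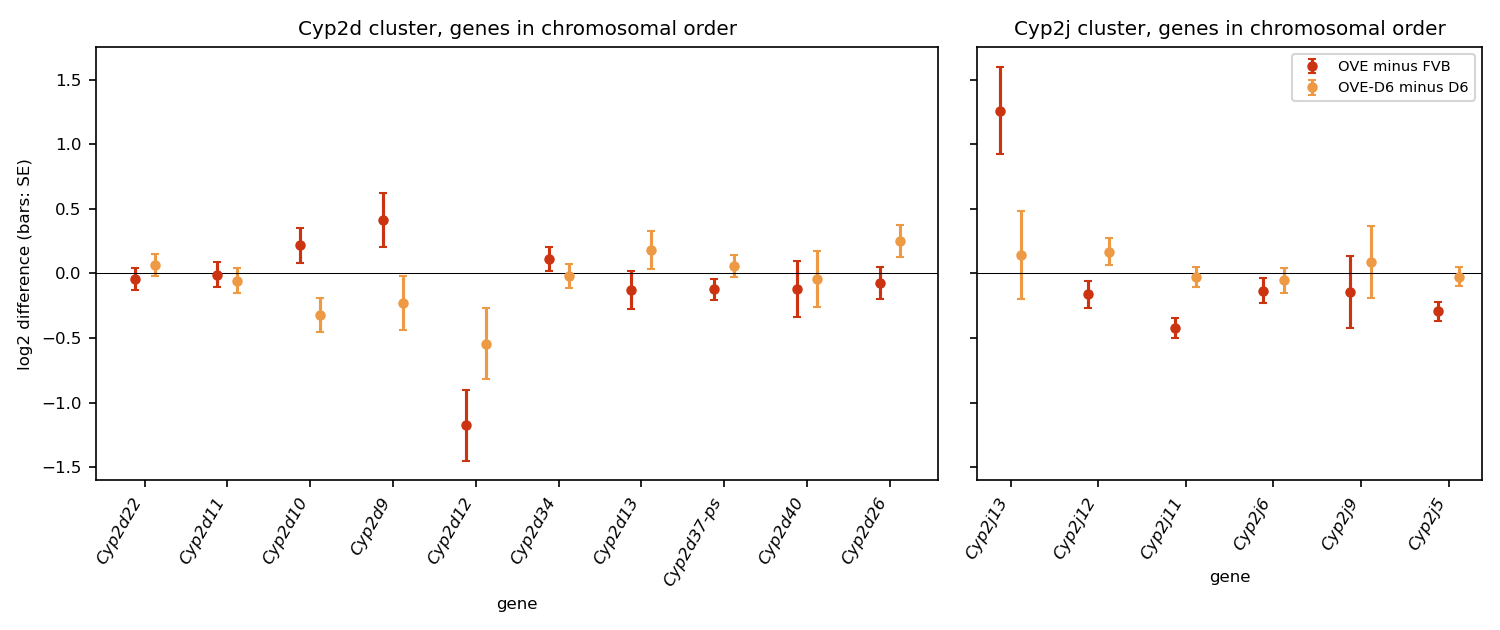
Log2 differences with SE are drawn for the 10 Cyp2d genes (left) and the 6 Cyp2j genes (right) in chromosomal order, red for OVE minus FVB and orange for OVE-D6 minus D6. Cyp2d12 at -1.18 stands beside Cyp2d9 at 0.41, and Cyp2j13 at 1.26 is the single large positive value of its cluster.

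The steroid hormone enzymes were read with the adrenal signal in view. Cyp21a1, the adrenal steroid hydroxylase, did not pass the filter, since it lay at 4.84 to 5.28 on 11 arrays. On OVE-D6 replicate 3 it read 9.16. That array also had 9.93 for Cyp11b1 against 5.27 to 5.76 elsewhere, 7.45 for Cyp11a1 against 4.67 to 5.26, and 8.87 for Star, the cholesterol carrier of steroid-making cells, against 6.08 to 7.07. Cyp11b2, aldosterone synthase, read 6.63 there and 5.57 to 5.99 on the other 11 arrays. It differed by 0.32 ± 0.20 between OVE-D6 and OVE and by 0.27 ± 0.20 between OVE-D6 and D6, and neither passed. Cyp17a1, which adrenals of adult mice lack and gonads express, read 7.25 on OVE replicate 1 and 5.69 to 6.29 on the other 11. Of the adrenal markers, Star at 7.07, Mc2r at 5.87 and Hsd3b1 at 5.87 were each highest on that array after OVE-D6 replicate 3. The values of Mc2r and Hsd3b1 were still under the background of 5.93. Cyp11a1 (4.99), Cyp11b1 (5.40) and Cyp21a1 (4.98) were not raised on OVE replicate 1. Nr5a1 was raised on neither array, at 6.07 on OVE replicate 1 and 6.38 on OVE-D6 replicate 3. Its highest value on any array was 6.43. Fdx1, also an adrenal marker, read 8.21 on OVE-D6 replicate 3, under 8.30 on FVB replicate 1. Whether these signals bear on other members was not tested beyond leaving the arrays out. Without OVE-D6 replicate 3 no member passed in OVE-D6 against OVE or against D6, where 0.115% and 0.103% of all genes did. In OVE against FVB 8 passed, with Cyp4f41-ps in place of Cyp2j13, beside 6.66% of all genes. Every group mean of Cyp4f41-ps lay under the background. In the averaged comparison 4 passed in place of 8, namely Cyp1b1, Cyp2e1, Cyp2r1 and Cyp4b1, beside 3.99% of all genes in place of 7.65%. Without OVE replicate 1, 4 passed in OVE against FVB, beside 4.34% of all genes, and 8 in the averaged comparison, beside 5.88%.

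**Figure D5:**
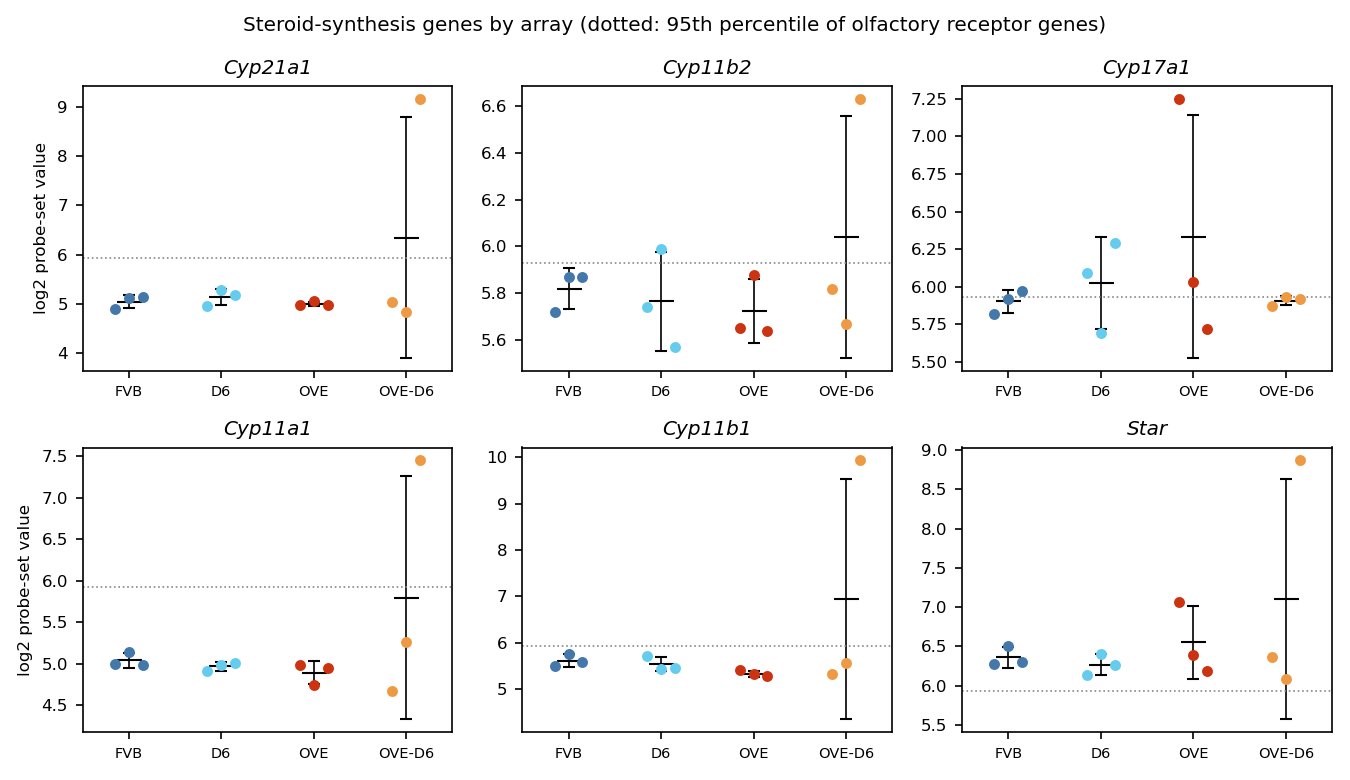
Each panel plots 1 steroid-synthesis gene, with the log2 probe-set value of every array on the vertical axis (ranges differ and do not start at 0), bars for mean and SD, and a dotted line at the background of 5.93. A single OVE-D6 array stands at 9.16 for Cyp21a1 and 9.93 for Cyp11b1, and a single OVE array at 7.25 for Cyp17a1.

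The 2 tested retinoic acid hydroxylases, Cyp26b1 and Cyp26c1, and the orphan Cyp20a1 passed in none of the 6 comparisons, and Cyp26a1 was not tested. Cyp26b1 lay between 6.55 and 7.13 on 11 arrays and read 7.82 on OVE-D6 replicate 1. Its OVE-D6 values lay above D6 with a narrow gap, and the difference of 0.52 ± 0.20 did not pass (adjusted p = 0.4). Cyp26c1 lay between 6.18 and 6.69 and Cyp20a1 between 9.12 and 9.53. The narrowest ranges over the 12 arrays, 0.31, were those of Cyp2d22, Cyp46a1 and Cyp2d34, the last with all group means under the background, and the widest ranges were those of Cyp2j13 (2.37), Cyp2d12 (1.85) and Cyp1b1 (1.65).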

How the data were processed

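Kidney RNA from 12 mice was hybridised to Affymetrix gene arrays per the labels' protocols, from 100 ng of RNA each. The table deposited by the authors holds log2 values, 1 per probe set and array. How they were summarised and normalised is not given in the sources used here. Array medians lay at 6.84 to 6.93, so no scaling was added. Of 35556 probe sets, 21789 had 1 symbol, 1621 several and 12146 none, with symbols updated through the RefSeq gene table of GRCm38.p6. The probe set with the highest mean stood for a gene.

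All 16480 genes over the 25th percentile of 3 or more arrays entered limma 3.58.1 in R 4.3.3 (group means over 12 arrays, contrasts, eBayes, Benjamini-Hochberg, adjusted p of 0.05). The 6 contrasts share arrays. Scripts were tested on simulated data. Members and gene lists were chosen with earlier results of these data known. In each comparison every member past the threshold was named and, under 4, the 4 with the smallest p. The 10 highest members were also named. Role groups, markers and pathway lists were described by counts and medians. Each label names 1 mouse per array, so p-values measure spread between mice, and 3 arrays per group limit the precision. Promoters are RefSeq sequences. Alternatives changed the filter, normalisation, probe set, variance model, arrays and threshold. Figures used Python 3.11.15, pandas 2.3.3 and matplotlib 3.10.9.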

Additional observations from a re-analysis of the deposited data

Results flagged for a closer look

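Cyp21a1, left out of the test for its low values, stood out on a single array. It read 9.16 on OVE-D6 replicate 3, where the highest FVB array read 5.13.

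Cyp2j11 was picked out because its D6 arrays all lay below its FVB arrays and its OVE-D6 arrays all above its OVE arrays. D6 minus FVB was -0.08 on the log2 scale (95% interval -0.25 to 0.09, adjusted p = 1) and OVE-D6 minus OVE was 0.31 (adjusted p = 0.121), and neither passed limma. The difference between them was tested as the interaction in limma (0.39 ± 0.11, SE, adjusted p = 0.287) and did not pass.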

How the results depend on the processing

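The 32 results for single members were each recomputed under the alternatives, giving 686 values. Of these 605 kept their direction and side of the threshold, 74 lost the call, 7 gained it and 0 changed direction. With only the groups compared in the fit, 2 members were called in OVE against FVB. In OVE-D6 against D6 the count was 1 with trended robust variances, 1 with array weights and 1 at an adjusted p of 0.10, and in OVE-D6 against OVE it was 1 at that threshold. Without the filter the median of OVE-D6 against OVE was 0.061. With arrays centred on their medians it was 0.197, and the medians of OVE against FVB and of the interaction were -0.115 and 0.16. Leaving out 1 array at a time gave 2 to 10 members in OVE against FVB, 3 to 10 in the averaged comparison, 0 to 5 in OVE-D6 against OVE and 0 to 2 in the interaction. The medians then ranged from -0.0564 to -0.0124, -0.0155 to 0.0233, 0.0921 to 0.146 and 0.0465 to 0.14, in the same order. The replicate block gave 6 members in OVE against FVB and 7 in the average. The counts in this section are given without the share of all genes called in the same fits, and are not read as particular to the members. The numbers do not pair the mice, since 2 of 18 same-numbered pairs correlated over 0.1 and 1 of 12 arrays correlated best with its own number. An alternative pseudocount does not apply to log2 values. With 3 arrays a group, small differences and probe sets near the background of 5.93 are the least certain.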
